A study of Mus musculus with 5 samples.

Results

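A set of 10 marker genes of embryonic microglia and macrophages were followed through RNA-seq libraries of the mouse forebrain at mid-gestation (E12.5). They are the genes of the deposited count table whose symbol is C1qa, C1qb, C1qc, Trem2, Csf1r, Aif1, Cx3cr1, P2ry12, Mrc1 or Tyrobp. The table holds 27919 rows with a gene symbol, and 13989 genes had enough counts to be tested. The study compared 3 libraries labelled EedcKO with 2 labelled wild type, all from untreated C57BL/6 embryos described as littermates. The Eed protein belongs to the Polycomb machinery, which represses genes through methylation of histone H3. The mutants are called EedcKO in the labels; the sources used here do not give the driver of the deletion or the deleted exons, so it is unknown whether microglia carry it. Nothing states whether every library was made from its own embryo. The p-values then reflect only how far these libraries spread, and that spread may be technical.

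Microglia are the resident macrophages of the brain. They descend from yolk sac progenitors that enter the neural tube early in development, before most neurons are made, and they are therefore no product of the neural progenitors that build the forebrain. A related population, the macrophages of the meninges, ventricles and vessel walls, shares most of these markers with microglia and expresses the mannose receptor Mrc1. Survival of both depends on the receptor tyrosine kinase Csf1r.

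The libraries were alike in depth, with 4820630 to 5026381 counts. The targeted gene set 1 library against its label. Eed had 404 counts in wild type 1 (85.0 CPM, a count adjusted for library size) and 238 (48.3 CPM) in that labelled wild type 2. In EedcKO 1, 2 and 3 it had 251, 233 and 247 counts (48.1 to 52.3 CPM), so the library labelled wild type 2 lay within their range. Exons outside the deletion can still be counted, so this checks the labels only in part. Other genes, singled out after their values were seen, placed that library with wild type 1: Neurod6 had 449 and 443 counts in the wild-type libraries against 943, 1158 and 1012 in EedcKO, Pax6 932 and 775 against 1332, 1318 and 1382, and Shh 124 and 103 against 5, 1 and 3. Of 882 genes called between EedcKO and wild type 1 alone, the library labelled wild type 2 was nearer in CPM to wild type 1 for 465 and nearer to the EedcKO mean for 417. Those genes were selected by the values of wild type 1 itself, which favours genes where it stands apart, so this split cannot check the label. With the label not settled, member values are given by library, and member fold changes also with either wild-type library left out. Forebrain neural markers were abundant throughout, with 10 of 10 listed genes detected and a summed level of 2517 to 2946 CPM. Xist counts were above 100 in both wild-type libraries and EedcKO 1 and at most 4 in EedcKO 2 and 3. Low Xist counts thus occurred in EedcKO alone. Whatever goes with them is partly confounded with the group in every comparison of the 2 groups.

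All members were detected in every library, at 6 to 211 counts, and all 10 passed the filter on low counts. Together they took 420 counts in wild type 1, 614 in that labelled wild type 2 and 435, 446 and 548 in EedcKO 1, 2 and 3. Scaled to library size these sums were 88.3, 125, 90.6, 92.1 and 112 CPM. The 2 wild-type libraries were thus the lowest and the highest of the 5, with all 3 EedcKO libraries between them. The 95% Poisson intervals of the summed counts ran from 381 to 462 for wild type 1 and from 566 to 665 for that labelled wild type 2. They cover counting error only and do not overlap. In bulk tissue, fewer cells of a type and less RNA per cell cannot be told apart.

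Mrc1 and the C1q genes were the members whose ratio between the wild-type libraries had a counting interval that excluded 1. Promoter sequences of Mrc1, C1qb and C1qc, which were highest in the library labelled wild type 2, and of P2ry12, which was lowest there, are printed for comparison. They come from RefSeq on GRCm38.p6, run 5′ to 3′ on the strand of the gene and cover 250 bases before to 50 bases after an annotated start. Of the 10 members, 7 had an entry in the promoter table. Capitals mark matches on either strand to the PU box GAGGAA, a core bound by the macrophage factor PU.1, and to AGGAAGT, a longer site of the same ETS family of factors.
Mrc1 (chr2:14229164-14229463, plus strand): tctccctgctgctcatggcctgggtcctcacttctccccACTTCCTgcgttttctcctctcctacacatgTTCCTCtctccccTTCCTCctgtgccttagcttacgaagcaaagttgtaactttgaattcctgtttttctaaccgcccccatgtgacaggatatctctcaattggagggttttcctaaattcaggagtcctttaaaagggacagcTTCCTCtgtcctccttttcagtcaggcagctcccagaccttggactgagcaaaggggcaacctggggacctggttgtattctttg
C1qb (chr4:136886151-136886450, minus strand): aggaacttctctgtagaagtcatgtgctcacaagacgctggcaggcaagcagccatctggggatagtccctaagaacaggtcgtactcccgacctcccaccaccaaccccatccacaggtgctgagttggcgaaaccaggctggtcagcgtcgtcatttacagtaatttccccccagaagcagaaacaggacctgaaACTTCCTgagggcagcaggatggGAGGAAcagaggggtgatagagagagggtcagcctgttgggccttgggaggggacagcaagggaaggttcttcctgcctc
C1qc (chr4:136892865-136893164, minus strand): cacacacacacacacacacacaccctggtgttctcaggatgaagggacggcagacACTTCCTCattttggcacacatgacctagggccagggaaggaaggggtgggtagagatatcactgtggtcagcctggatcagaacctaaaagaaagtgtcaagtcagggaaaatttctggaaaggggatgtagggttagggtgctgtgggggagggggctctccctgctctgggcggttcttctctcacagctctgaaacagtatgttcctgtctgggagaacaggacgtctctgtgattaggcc
P2ry12 (chr3:59262936-59263235, minus strand): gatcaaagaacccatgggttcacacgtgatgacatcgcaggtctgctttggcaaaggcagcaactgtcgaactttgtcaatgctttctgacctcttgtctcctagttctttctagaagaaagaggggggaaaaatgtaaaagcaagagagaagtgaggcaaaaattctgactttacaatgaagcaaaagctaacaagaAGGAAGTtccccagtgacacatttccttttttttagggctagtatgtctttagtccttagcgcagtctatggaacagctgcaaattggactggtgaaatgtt

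In these windows Mrc1 held 3 PU boxes and 1 AGGAAGT, and C1qb held 1 of each. In C1qc the 2 motifs overlapped in a single run, ACTTCCTC on the printed strand, 195 bases before the start. P2ry12 held AGGAAGT alone. Among the members whose entries are not printed, Trem2, also highest in the library labelled wild type 2, held 1 PU box and no AGGAAGT. Aif1, whose ratio of that library to wild type 1 was 0.789, likewise held 1 PU box and no AGGAAGT. Cx3cr1 held neither motif, so the printed genes do not stand for all 7. GAGGAA was found in 5 of the 7 member promoters and in 28.3% of all 32851 promoters of this length, and AGGAAGT in 4 of 7 and in 9.35%. Both motifs were chosen after the sequences were seen, and a match is a description of the letters, not evidence of binding.

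C1qa, C1qb and C1qc encode the 3 chains of C1q, the recognition subunit of the classical complement pathway, which brain macrophages secrete. The genes lie side by side on the minus strand of chromosome 4 (mm10, 136880129 to 136898803, a span of 18675 bases). C1qa (136895917 to 136898803) had 25 counts in wild type 1, 61 in that labelled wild type 2 and 30, 25 and 38 in EedcKO 1, 2 and 3. C1qb (136880129 to 136886187) had 27 and 62 counts in the wild-type libraries and 46, 45 and 38 in EedcKO. C1qc (136889804 to 136893065) had 39 and 79 against 35, 39 and 46. All 3 chains shared 1 pattern: the library labelled wild type 2 stood highest, and wild type 1 lay below the EedcKO range in CPM for C1qb and within it for C1qa and C1qc.

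Between the 2 wild-type libraries the summed C1q level differed 2.14-fold (95% counting interval 1.66 to 2.77). By gene the ratio was 2.35 for C1qa, 2.21 for C1qb and 1.95 for C1qc. In EedcKO the summed C1q level was 23.5 ± 1.28 CPM (SD, n = 3), 1.23 times that of wild type 1 and 0.574 times that of the library labelled wild type 2. The 3 EedcKO libraries were therefore closer to each other than the wild-type pair (30.1 ± 15.4 CPM, SD, n = 2).

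Trem2 and Tyrobp encode a receptor and its signalling partner. TREM2 is a lipid-sensing receptor of the cell surface, and TYROBP (DAP12) is the adaptor that carries its signal inward. Trem2 (chromosome 17, 48346401 to 48354147, plus strand) had 17 and 25 counts in the wild-type libraries and 13, 13 and 17 in EedcKO. After scaling these were 3.58 and 5.07 CPM against 2.71, 2.68 and 3.48 CPM. Trem2 was the 1 member of 10 whose groups did not overlap, lower in EedcKO. Groups were apart for 33.8% of all tested genes, lower in EedcKO for 17.4% and higher for 16.4%. EedcKO 3 and wild type 1 nearly met. Tyrobp (chromosome 7, 30413760 to 30417585, plus strand) did not share this order. It had 9 counts in wild type 1, its lowest library, 20 in that labelled wild type 2 and 12, 17 and 22 in EedcKO.

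Csf1r, Cx3cr1 and P2ry12 are surface receptors of microglia. CSF1R binds the growth factors CSF1 and IL-34, CX3CR1 binds the neuronal chemokine fractalkine, and P2RY12 senses extracellular nucleotides. Csf1r (chromosome 18, 61100598 to 61132149, plus strand) was the member with the most counts, 175 and 194 in the wild-type libraries and 147, 161 and 211 in EedcKO. Its lowest and highest libraries were both EedcKO, so the wild-type pair lay inside the EedcKO range. Cx3cr1 (chromosome 9, 119901616 to 120069879, minus strand) had 58 and 54 counts against 46, 49 and 68, again with the wild-type pair inside the EedcKO range.

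P2ry12 (chromosome 3, 59216272 to 59262871, minus strand) had 30 and 21 counts in the wild-type libraries and 29, 30 and 26 in EedcKO. Here the library labelled wild type 2 was the lowest, opposite to its place for C1q and Mrc1, though the counting interval of its ratio to wild type 1 (0.675, from 0.367 to 1.22) spanned 1. Aif1, which encodes the cytoplasmic calcium-binding protein IBA1 (chromosome 17, 35170991 to 35176068, minus strand), had 11 and 9 counts against 6, 14 and 6. At these counts differences between single libraries were not detectable.

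Mrc1 encodes the mannose receptor CD206, an endocytic receptor for glycans. It lies on the plus strand of chromosome 2 (14229392 to 14332057). It had 29 counts in wild type 1 (6.10 CPM) and 89 in that labelled wild type 2 (18.1 CPM), a 2.96-fold difference (95% counting interval 1.93 to 4.67). In EedcKO 1, 2 and 3 it had 71, 53 and 76 counts (14.8, 10.9 and 15.5 CPM). Wild type 1 stood below the other 4 libraries. Across the 5 libraries the spread of the Mrc1 counts was 7.98 times that of counting alone, measured as the chi-square per degree of freedom. The same measure was 6.33 for C1qc, 5.92 for C1qa, 3.46 for C1qb and 3.23 for Csf1r. It was 0.636 to 1.71 for P2ry12, Cx3cr1, Aif1, Trem2 and Tyrobp, which varied little more than counting gives.

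The balance of the 2 receptors that are commonly used to separate these populations differed between libraries. This pair was chosen after its values were seen. Mrc1 counts per P2ry12 count were 0.967 in wild type 1 (95% counting interval 0.560 to 1.67) and 4.24 in that labelled wild type 2 (2.61 to 7.18). The ratios of EedcKO 1, 2 and 3 were 2.45, 1.77 and 2.92. All 3 lay between those of the wild-type libraries.

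**Figure D1:**
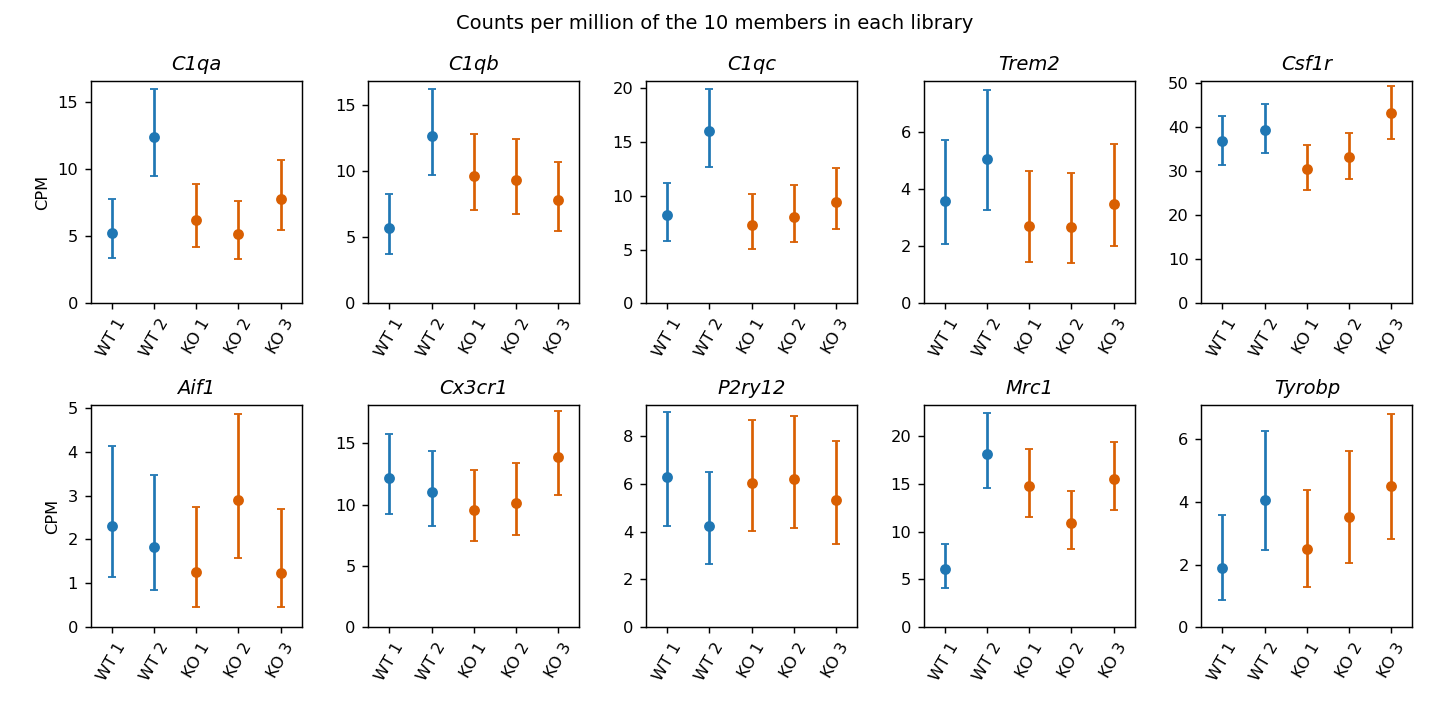
Each panel shows 1 member, with CPM on the y axis and the 5 libraries on the x axis (WT, wild type, blue; KO, EedcKO, orange); bars are 95% Poisson intervals of the count. For the 3 C1q genes the point of WT 2 stands above the other 4, for Mrc1 that of WT 1 (6.10 CPM) below them, and for Csf1r, Cx3cr1 and Aif1 the wild-type pair lies within the EedcKO range.

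The comparison of the labelled groups asked whether members differ when Eed is deleted. With edgeR's quasi-likelihood test, 0 of 10 members passed an adjusted p of 0.05, where 3.20% of all 13989 tested genes passed. None had an unadjusted edgeR p under 0.05, where 2407 of all 13989 tested genes did. DESeq2 and limma-voom also called 0 members. Log2 fold changes (EedcKO over wild type) were negative for 7 members and positive for 3, with a median of -0.07 beside 0.01 for all tested genes. They ran from -0.55 for C1qc to 0.23 for Tyrobp, and adjusted p ran from 0.449 to 0.974 (edgeR).

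A missed threshold does not show that levels were alike, and the intervals differed in width. The narrowest was that of Csf1r, the member with the most counts, at -0.09 (SE 0.17, 95% interval -0.48 to 0.29), which corresponds to 0.717 to 1.22 times the wild-type level. Cx3cr1 had -0.05 (SE 0.25, interval -0.62 to 0.52) and P2ry12 0.15 (SE 0.31, interval -0.58 to 0.87). Among these receptors a 2-fold change in either direction lay outside the interval.

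Intervals of most other members reached further. The C1q chains had -0.46 (SE 0.40) for C1qa, -0.04 (SE 0.35) for C1qb and -0.55 (SE 0.32) for C1qc. Trem2 had -0.55 (SE 0.36, interval -1.38 to 0.29) and Tyrobp 0.23 (SE 0.46, interval -0.85 to 1.31). The intervals of C1qa and C1qc reached -1.40 and -1.30. Mrc1 had 0.18 (SE 0.42, interval -0.80 to 1.17), from 12.1 ± 8.45 CPM (SD, n = 2) in wild type to 13.8 ± 2.47 CPM (SD, n = 3) in EedcKO. Aif1, the member with the fewest counts, had -0.21 (SE 0.53, interval -1.45 to 1.04). For C1qa, C1qc and these last 4 genes a 2-fold change in at least 1 direction lay within the interval.

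Which wild-type library served as the reference set the direction for several members. Without the library labelled wild type 2, log2 fold changes were 1.18 for Mrc1 (edgeR adjusted p = 0.0661), 0.89 for Tyrobp, 0.65 for C1qb, 0.29 for C1qa and 0.02 for C1qc. Without wild type 1 the same genes had -0.41, -0.22, -0.52, -0.97 and -0.97, where C1qc came nearest to the threshold (edgeR adjusted p = 0.0618). Trem2 (-0.26 and -0.79), Csf1r (-0.04 and -0.16) and Aif1 (-0.36 and -0.05) were negative against either library, while Cx3cr1 (-0.11 and 0.02) and P2ry12 (-0.10 and 0.44) changed sign. Each of these fits leaves 1 wild-type library, which is assumed to vary like the EedcKO group, and no member passed in either.

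**Figure D2:**
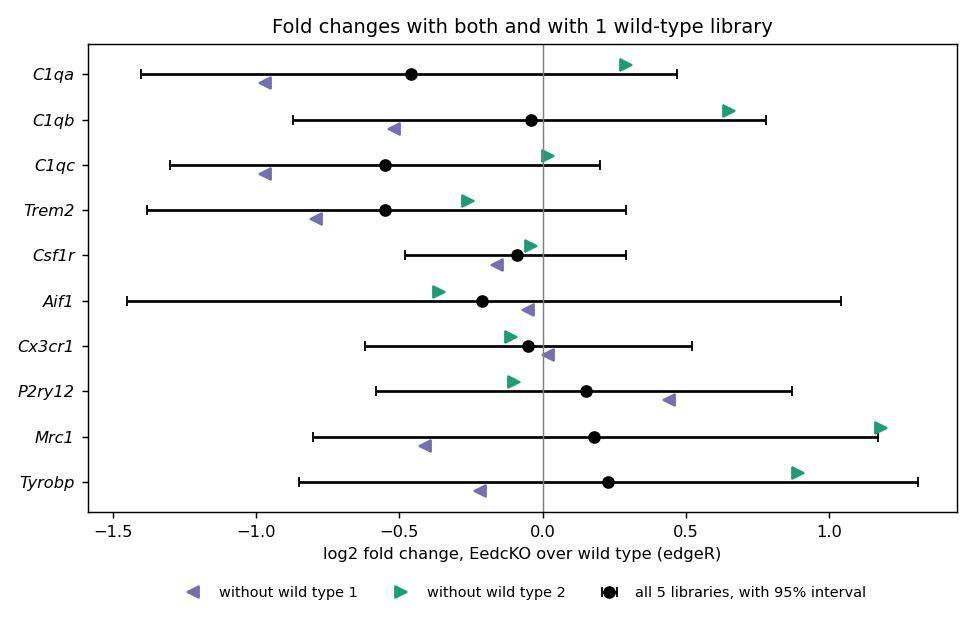
Log2 fold changes of EedcKO over wild type from edgeR for the 10 members, with all 5 libraries (black, 95% interval), without wild type 1 (purple) and without wild type 2 (green). All 10 black intervals include 0, and the coloured points fall on opposite sides of 0 for Mrc1, Tyrobp, C1qa, C1qb, C1qc, Cx3cr1 and P2ry12.

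Of the 10 members, 5 had their highest CPM in the library labelled wild type 2 (C1qa, C1qb, C1qc, Trem2 and Mrc1), as had 23.3% of all tested genes. Wild type 1 was the lowest library for 3 members (C1qb, Mrc1 and Tyrobp) and for 23.1% of all tested genes. The library labelled wild type 2 was at least 2-fold above wild type 1 for 4 members (C1qa, C1qb, Mrc1 and Tyrobp) and for 5.30% of all tested genes. The members share a cell lineage and the same libraries, so these counts are not independent of each other.

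Levels of different genes were compared in TPM, a unit that divides counts by gene length and scales every library to the same total. C1qb stood highest at 40.0 ± 11.4 TPM (SD, n = 5), followed by C1qa at 34.3 ± 13.9 and Csf1r at 30.7 ± 3.99. C1qc (24.5 ± 8.93) and Tyrobp (23.9 ± 7.81) came next. The mean differences between neighbours among these 5 genes did not exceed the SDs of both genes, so neighbours were not resolved. C1qb stood above C1qc and above Tyrobp by more than the SDs of both genes compared, and in 5 of 5 libraries. A step separated them from Cx3cr1 (12.2 ± 1.79), P2ry12 (10.7 ± 1.62) and Mrc1 (9.95 ± 3.57), which were by the same measure not resolved from each other. Aif1 (6.00 ± 2.24) and Trem2 (3.43 ± 0.945) were lowest, and Tyrobp exceeded Cx3cr1, and Aif1 exceeded Trem2, in 5 of 5 libraries.

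The low place of Trem2 depended on the length used. The TPM length of all 10 members was proportional to the union of all exons in GENCODE M21, which for Trem2 is 4946 bases. Its principal transcript has 1088 bases, 22.0% of that. Per kilobase of principal transcript, Trem2 rose from 0.708 to 3.22 CPM per kilobase and moved from the tenth to the sixth place, above Cx3cr1 (2.53), Mrc1 (2.43), P2ry12 (2.40) and Aif1 (2.17). C1qc moved from 5.07 to 8.14 CPM per kilobase, beside C1qb at 8.25. With this length all 3 C1q chains and Csf1r lay between 7.08 and 8.25 CPM per kilobase. The choice of length does not enter any fold change of a gene between libraries.

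**Figure D3:**
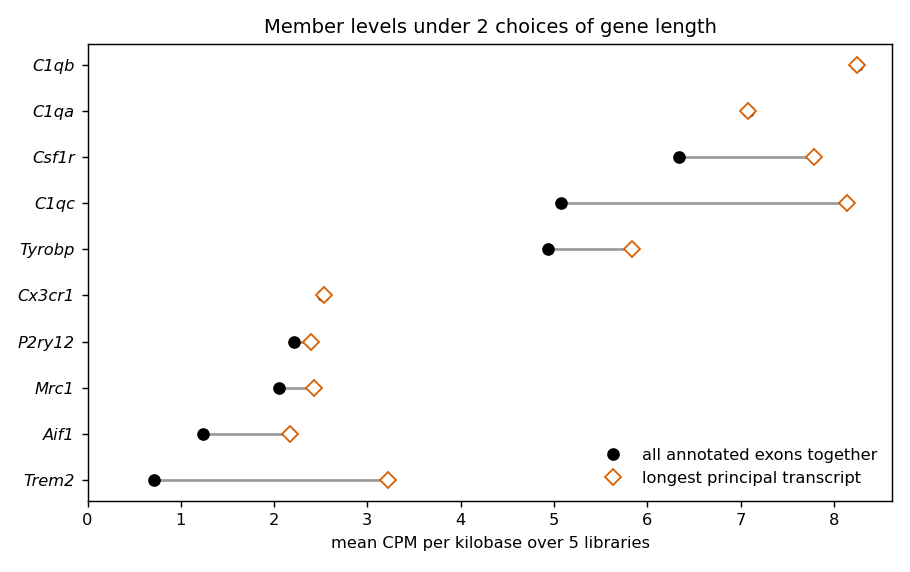
Mean CPM per kilobase over the 5 libraries (x axis) for each member (y axis, in order of mean TPM), divided by the union of annotated exons (black) or by the longest principal transcript (orange diamonds). The line of Trem2, from 0.708 to 3.22, is the longest relative to its start, while C1qa and C1qb do not move.

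Ligands and transcription factors that act on these cells were read from lists set down beside the members. Of 5 tested ligands 1 fell, Cx3cl1, which encodes fractalkine, the ligand of CX3CR1 (2.17% of all tested genes fell). Cx3cl1 (chromosome 8, 94772009 to 94782427) had 143 and 193 counts in the wild-type libraries and 92, 64 and 73 in EedcKO, so the groups did not overlap. Mean levels were 34.6 ± 6.41 CPM in wild type (SD, n = 2) and 15.8 ± 3.06 CPM in EedcKO (SD, n = 3), and the log2 fold change was -1.13 (SE 0.20, edgeR adjusted p = 0.0314). The log2 fold change was -0.92 without the library labelled wild type 2 and -1.33 without wild type 1, both past the threshold. The call was lost without EedcKO 2 (edgeR adjusted p = 0.105) or EedcKO 3 (0.172), in the TPM fits (limma adjusted p from 0.076 to 0.117), with the replicate block (edgeR adjusted p = 0.167) and in the 3 libraries with over 100 Xist counts (0.746). Of the CSF1R ligands, Csf1 did not pass. It had 81 and 82 counts against 118, 99 and 116 (0.44, edgeR adjusted p = 0.206), and Il34, with at most 5 counts in any library, was not tested. Cx3cr1 itself, as given above, had a log2 fold change of -0.05.

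Of 8 tested transcription factors of the macrophage lineage, 1 rose, Sall1 (1.04% of all tested genes rose). SALL1 maintains microglial identity but is also a factor of neural progenitors, and its 704 to 1583 counts per library exceeded those of every member. Sall1 (chromosome 8, 89027235 to 89044162) had 798 and 704 counts in the wild-type libraries and 1233, 1152 and 1583 in EedcKO (edgeR log2 fold change 0.81, SE 0.15; adjusted p = 0.0364). This call was lost without the library labelled wild type 2 (edgeR adjusted p = 0.0519) and without EedcKO 1 (0.0781), 2 (0.0741) or 3 (0.133), in the TPM fits (limma adjusted p from 0.0548 to 0.0923), with the replicate block (edgeR adjusted p = 0.104) and in the 3 libraries with over 100 Xist counts (0.701). DESeq2 called 2 factors, Sall1 and Maf, and limma-voom called 1, Sall1. With edgeR 3 of the 8 factors had an unadjusted p under 0.05, Sall1, Maf and Ikzf1, as had 2407 of all 13989 tested genes. Maf, a factor of macrophages and of some neurons, had 277 and 358 counts against 214, 220 and 178, so the groups did not overlap (log2 fold change -0.64, SE 0.14; adjusted p = 0.0618 with edgeR). Ikzf1, a factor of blood cell lineages, had 21 and 56 counts against 88, 59 and 72 (0.93, SE 0.39; adjusted p = 0.279 with edgeR). Spi1, which encodes PU.1, had 15 and 24 counts against 8, 8 and 14, and its log2 fold change was -0.95 (SE 0.43; adjusted p = 0.316 with edgeR). Maf, Ikzf1 and Spi1 were named after their values were seen. Over the 8 factors the median was -0.13.

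The signalling genes downstream of TYROBP had 0 calls of 5 tested with edgeR (0 at an unadjusted p under 0.05, and 0 with DESeq2 or limma-voom). The kinase Syk, which docks on phosphorylated TYROBP, had 49 and 52 counts against 59, 46 and 51. The adaptor Lat2 had 50 and 39 counts against 37, 59 and 48, and Inpp5d, a lipid phosphatase of the pathway, 21 and 42 against 26, 29 and 46. Complement genes beside C1q had 0 calls of 5 tested by the same 3 tools and 0 at an unadjusted p under 0.05. Over all 13989 tested genes edgeR called 3.20%, and 2407 had an unadjusted edgeR p under 0.05. C1r and C1s, the proteases that C1q activates, were nearly undetected: C1ra, C1rb, C1s1 and C1s2 had 0 to 4 counts per library, and C4b had 0 in all 5. C2 had 68 and 71 counts against 66, 69 and 79, and Cd93, also on this list, had 237 and 170 against 218, 177 and 270. Counts of the C1q chains were therefore above those of C1r and C1s. They were below those of C2, another protease of the pathway, except for C1qc in the library labelled wild type 2 (79 against 71). Counts of different genes also depend on gene length, so they do not rank levels.

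Other microglia genes and other macrophage genes had 0 calls of 11 and 0 of 14 tested with edgeR, and none with DESeq2 or limma-voom. At an unadjusted edgeR p under 0.05 they had 0 and 1, where 2407 of all 13989 tested genes passed. The 14 other microglia genes had a summed level of 118 CPM in wild type 1, of 144 in that labelled wild type 2 and of 121 to 124 in EedcKO. The lysosomal protease gene Lgmn had 214 and 295 counts against 217, 230 and 244, with the library labelled wild type 2 highest. The median log2 fold change was 0.01.

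The 23 other macrophage genes had a summed level of 129 CPM in wild type 1, of 218 in that labelled wild type 2 and of 155 to 192 in EedcKO, a wider spread with wild type 1 lowest. Of the 14 tested, 7 were highest in the library labelled wild type 2 (23.3% of all tested genes) and 7 lowest in wild type 1 (23.1%). The scavenger receptor Stab1 had 159 and 244 counts against 184, 190 and 275, and the endocytic adaptor Dab2 118 and 247 against 184, 153 and 189. The pattern of Mrc1 recurred in F13a1, which encodes a coagulation factor subunit (20 and 98 counts against 59, 50 and 60), and in the hyaluronan receptor Lyve1 (13 and 42 against 31, 27 and 29). Both mark macrophages of the brain's borders and vessels and were named here after their values were seen. Mpeg1, a pore-forming protein of all macrophages, had 69 and 71 counts against 70, 74 and 58 and showed no such difference between the wild-type libraries. Other genes of the list, picked after their values were seen, were mixed. Cd68 (37 and 41 counts in the wild-type libraries) and Adgre1 (24 and 23) differed little, while Fcgr3 (16 and 29) and Fcer1g (13 and 25) were higher in the library labelled wild type 2. Whether the difference was particular to border macrophages was not tested.

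Markers of other tissues also differed between the wild-type libraries. The summed erythroid level was 261 CPM in wild type 1, 644 in that labelled wild type 2 and 252 to 434 in EedcKO. Of these genes 10 of 10 were highest in the library labelled wild type 2, as were 23.3% of all tested genes. The size of the difference between the wild-type libraries varied by gene, from 93.4 and 104 CPM for Hbb-y to 28.2 and 194 CPM for Slc4a1. Meninges and pericyte genes summed to 472 and 625 CPM against 475 to 916, with Col3a1 at 703 and 893 counts against 1381, 735 and 1328. This list was mixed between the wild-type libraries. The pericyte genes Rgs5 (248 and 127 counts), Abcc9 (122 and 69), Pdgfrb (198 and 178) and Kcnj8 (26 and 24) were lower in the library labelled wild type 2. The collagen genes, Lum, Dcn and Foxc1 were higher there. This split was made after the values were seen. Summed endothelial genes were lower in the library labelled wild type 2 than in wild type 1, with 347 and 262 CPM against 273 to 376. Blood leukocyte markers were scarce: of 10 granulocyte, monocyte and mast cell genes 4 had no count in any library, and all but Prtn3 (41 to 57 counts) had at most 5. Of 8 lymphocyte genes 4 had no count, and the list summed to at most 1.84 CPM. Whether blood, vessel or meningeal content had a part in the differences of Mrc1 and C1q was not tested.

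**Figure D4:**
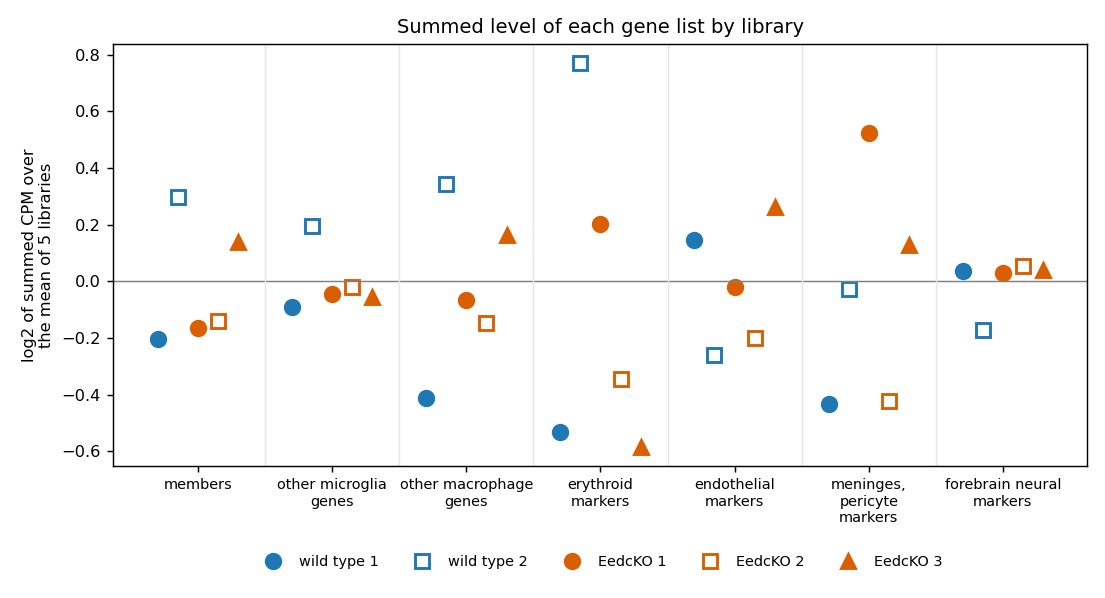
Summed CPM of each gene list, as log2 of its ratio to the mean of the 5 libraries (y axis), for wild type (blue) and EedcKO (orange) libraries. The library labelled wild type 2 is the highest point for the members, both related lists and the erythroid markers (644 CPM), and the lowest for the endothelial (262 CPM) and neural markers (2517 CPM).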

How the data were processed

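Polyadenylated RNA from E12.5 forebrain was measured in 3 EedcKO and 2 wild-type libraries, grouped by title. Per the submitters' processing notes, the build is mm10 and the tools include HISAT2 2.2.0. The sources used here do not give the counting tool or its use of strand. Deposited by the authors were whole-number counts per gene (56196 rows) and a TPM table (24926 rows). For 98.8% of 13601 genes with at least 50 counts, the deposited TPM length matched the union of GENCODE M21 exons within 1%, which lengthens genes with long minor transcripts. Without strand, reads of Csf1r exons that overlap Hmgxb3 on the opposite strand (15.1% of their length) cannot be assigned. Cx3cr1 (1.73%) and P2ry12 (0.353%) overlapped less, and no other member overlapped an exon of another gene.

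Rows without a symbol (28277, 50.3% of rows and 2.01% to 2.16% of counts) were left out of library sizes and tests. For 407 symbols on several rows, among them Trem2, whose second row held no counts, the symbol went to the row with at least 99% of the counts. Counts were tested in R 4.3.3 with edgeR 4.0.16 (filterByExpr by group, TMM, glmQLFit robust, glmQLFTest on the group alone), with Benjamini-Hochberg adjustment over 13989 genes and a threshold of 0.05. Scripts were checked on simulated counts. The standard error is the log2 fold change over the square root of F, and its 95% interval uses the total degrees of freedom of the fit. CPM are TMM-scaled. A count of 0 allows up to 3 counts, or 0.608 to 0.631 CPM on this scale. Without molecular identifiers, intervals of counts and ratios describe counting error alone. Alternatives were DESeq2 1.42.0, limma-voom (limma 3.58.1), scaling by RLE or by library size, other count filters, limma-trend on log2 TPM (pseudocount 1, with and without a filter, or 0.1), a replicate block, the 3 libraries with over 100 Xist counts, and each library left out. The length of the principal transcript was added after the data were seen. Members and lists were chosen with earlier results of these data known. Named genes were the 10 members, Eed, listed ligands, factors, complement and signalling genes past the threshold (otherwise the 3 with the highest mean CPM), the 4 highest of the related microglia and macrophage lists, the 2 highest of each list of another cell type, and the 5 genes with the nearest profile. A gene that this rule names is not reported here. Coordinates are from GENCODE M21 (GRCm38, mm10), 1-based. Columns from samples of no listed group numbered 0.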

Additional observations from a re-analysis of the deposited data

How the results depend on the processing

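No member passed the threshold under any of the 16 alternatives, and 141 of 159 member values kept their direction while 18 reversed. C1qb reversed with limma-voom (0.05), log2 TPM at each setting (0.07), the replicate block (0.13) and the 3 libraries with over 100 Xist counts (0.07), where Tyrobp also reversed (-0.25). With 1 library left out, log2 fold changes ran from -0.97 to 0.29 for C1qa, -0.52 to 0.65 for C1qb, -0.97 to 0.02 for C1qc, -0.36 to 0.00 for Aif1, -0.23 to 0.05 for Cx3cr1, -0.10 to 0.44 for P2ry12, -0.41 to 1.18 for Mrc1, -0.22 to 0.89 for Tyrobp and -0.75 to 0.04 for Eed. The log2 ratio of the summed member level was -0.12, and it ran from -0.34 to 0.15 with 1 library left out, the latter without the library labelled wild type 2. The 448 genes called became 679 with DESeq2, 203 and 152 with log2 TPM at pseudocounts of 1 and 0.1, 42 with no filter on TPM, and 0 to 1012 with 1 library left out. The 4 other listed genes called became 2, 1 and 1 in those TPM fits and 0 to 7 with 1 library left out. With the replicate block, and with the 3 libraries with over 100 Xist counts, both counts were 0. In these fits 2169 and 902 genes had an unadjusted edgeR p under 0.05. EedcKO 3 has no wild-type partner of its number, and no label ties equal numbers to a litter. Deviations from the group means correlated at -0.04 for the libraries numbered 1 and 0.13 for those numbered 2, over 13989 genes. The deviations of the 2 wild-type libraries mirror each other, so these values cannot show whether libraries of equal number share a litter or batch. With 1 EedcKO library left in the Xist fit, that library is assumed to vary like the wild type. At 6 to 30 counts per library, as for Aif1, Tyrobp, Trem2 and P2ry12, counting error limited what could be seen. The cause of these changes was not tested.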

Other observations

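The summed level of the members over the 5 libraries was set against 13769 tested genes outside the lists whose mean log2 CPM reached 1. Likeness was the Euclidean distance between log2 CPM profiles, each centred on its own mean, over 5 libraries. The nearest was Icosl, which encodes a costimulatory ligand of antigen-presenting cells, at a distance of 0.0475. Its levels were 2.94 and 4.26 CPM in the wild-type libraries and 2.92, 3.10 and 3.89 CPM in EedcKO. Next came Anxa6 (0.0664), which encodes a calcium-dependent membrane-binding annexin, Afap1l1 (0.0770), Fbxo9 (0.0779) and Pgp (0.0834). The members' own profile had a length of 0.438 and the median distance of all ranked genes was 0.595. With 5 libraries 112 genes lay within 0.2, so the order among the nearest carries little weight.

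Among complement genes, C3 had 48 counts in EedcKO 1 and 2 to 10 in the other 4 libraries. Hpgds, a prostaglandin synthase on the macrophage list, had 40 and 65 counts in the wild-type libraries and 33, 31 and 13 in EedcKO (log2 fold change -1.02, SE 0.42, edgeR adjusted p = 0.270). Both were singled out after their values were seen.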
